A study of Mus musculus with 8 samples.

Results

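The enzymes that burn fatty acids in mitochondria and peroxisomes, and the tricarboxylic acid (TCA) cycle that takes up their product, were examined in kidney RNA after ischemia-reperfusion (I/R) injury. The group holds 47 genes listed by symbol, out of 25239 genes in the count table: 21 of mitochondrial beta-oxidation, 9 of the peroxisome and 17 of the TCA cycle and pyruvate dehydrogenase. All 47 were found in the table and all 47 passed the filter on low counts. Knockout and control were compared with 4 libraries each. The knockout group, labelled as a myeloid-specific FoxO1 knockout, came from Lyz2-CreERT2 FoxO1flox/flox mice, in which tamoxifen at 75 mg per kg on 5 days, begun at 8 to 10 weeks of age, switches on a Cre recombinase driven by the myeloid gene Lyz2. The control group is labelled wild type. In both groups blood flow to the left kidney was stopped with a clamp for 35 minutes and then restored, after removal of the right kidney. Uninjured kidneys were not analysed here. The same tamoxifen schedule and age are listed for the control libraries. The sources used here do not say outright whether the controls carried Cre or were in fact given tamoxifen. Nor do they give the strain, the sex or the time of collection. The RNA is that of the whole digested kidney, so values of tubule enzymes are not values of the cells in which FoxO1 was deleted.

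Fatty acids enter mitochondria as carnitine esters made by the carnitine palmitoyltransferases and are then shortened in a repeating cycle of dehydrogenation, hydration, further dehydrogenation and thiolysis. Peroxisomes run a similar cycle on very long, branched and bile-acid-like chains, and import its enzymes with proteins called peroxins. The TCA cycle oxidizes the acetyl-CoA from fat and, through pyruvate dehydrogenase, from sugar. The proximal tubule of the kidney, which carries out most of the solute transport, relies on fatty acid oxidation for its ATP and is rich in both organelles.

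Depth was similar in all libraries, with 29044405 to 34738914 counts in the knockout and 32627652 to 35530421 in the control. The 47 genes were well covered, with between 837 counts (Acox2) and 57446 counts (Acsm2) in any 1 library. All 8 libraries carried 322 to 739 counts of the Y-linked gene Ddx3y and at most 8 counts of Xist, the RNA of the inactive X chromosome. Foxo1 itself stood at 39.3 to 42.9 CPM (counts scaled to library size by the TMM method) in the knockout and 33.0 to 34.5 CPM in the control, which in whole kidney does not check its deletion in myeloid cells. Control 1 stood apart for the genes described here: it was the lowest of the 4 controls for 37 of the 47 (78.7%), against 33% of the 15000 genes tested, and the lowest of all 8 libraries for 34. The median of the 47 genes, taken as log2 CPM relative to the control mean, was 0.19, 0.37, 0.30 and 0.11 in knockouts 1 to 4, against -0.39, 0.20, 0.04 and 0.18 in controls 1 to 4. The summed level of 12 convoluted proximal tubule markers was also lowest in control 1: 7007 to 10168 CPM in the knockouts, 3680 CPM in control 1 and 5463 to 9894 CPM in controls 2 to 4. The class medians and several genes are also given without control 1. The part of proximal tubule content in the levels of the 47 genes was not tested.

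These genes passed the test about as often as all genes tested, and those that passed were higher in the knockout. Of the 47, 6 rose in the knockout, 0 fell and 41 missed the threshold, an adjusted p under 0.05 in edgeR over all genes tested. The 6 were Acadsb and Acat1 of beta-oxidation, Acox2 of the peroxisome, and Idh3a, Pdhb and Suclg1 of the TCA group. They make up 12.8% of the 47. Of all genes tested, 12.7% passed in either direction: 6.45% rose and 6.28% fell. With length and GC trends removed 11 rose and 0 fell, where 7.2% of all genes tested rose and 11.1% fell. At an unadjusted p under 0.05, 13 genes were higher and 1 was lower, where 14.5% of all genes tested were higher and 14.6% lower. The limma voom test with quality weights called 10 higher and 1 lower, against 9.4% higher and 9.65% lower of all genes tested, and DESeq2 called 11 higher and 0 lower, against 9.6% higher and 8.77% lower among the genes it tested. Small shifts ran mostly upward: 38 of the 47 (80.9%) had a log2 fold change above 0, against 48.8% of all genes tested, and the median was 0.20 against -0.01. Over the 18 alternatives of the analysis, 29 to 41 of the 47 were above 0. Without control 1 the share above 0 was 68.1%, against 50.2% of all genes, and the median was 0.11. The fold changes ran from -0.37 (Acadl) to 1.14 (Acox2) on the log2 scale. Groups did not overlap for 14 genes (29.8%), all higher in the knockout. Of all genes tested, 21.7% had no overlap, 11.1% with the knockout higher and 10.6% with it lower. In bulk tissue, fewer cells of a type and less RNA per cell cannot be told apart.

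**Figure D1:**
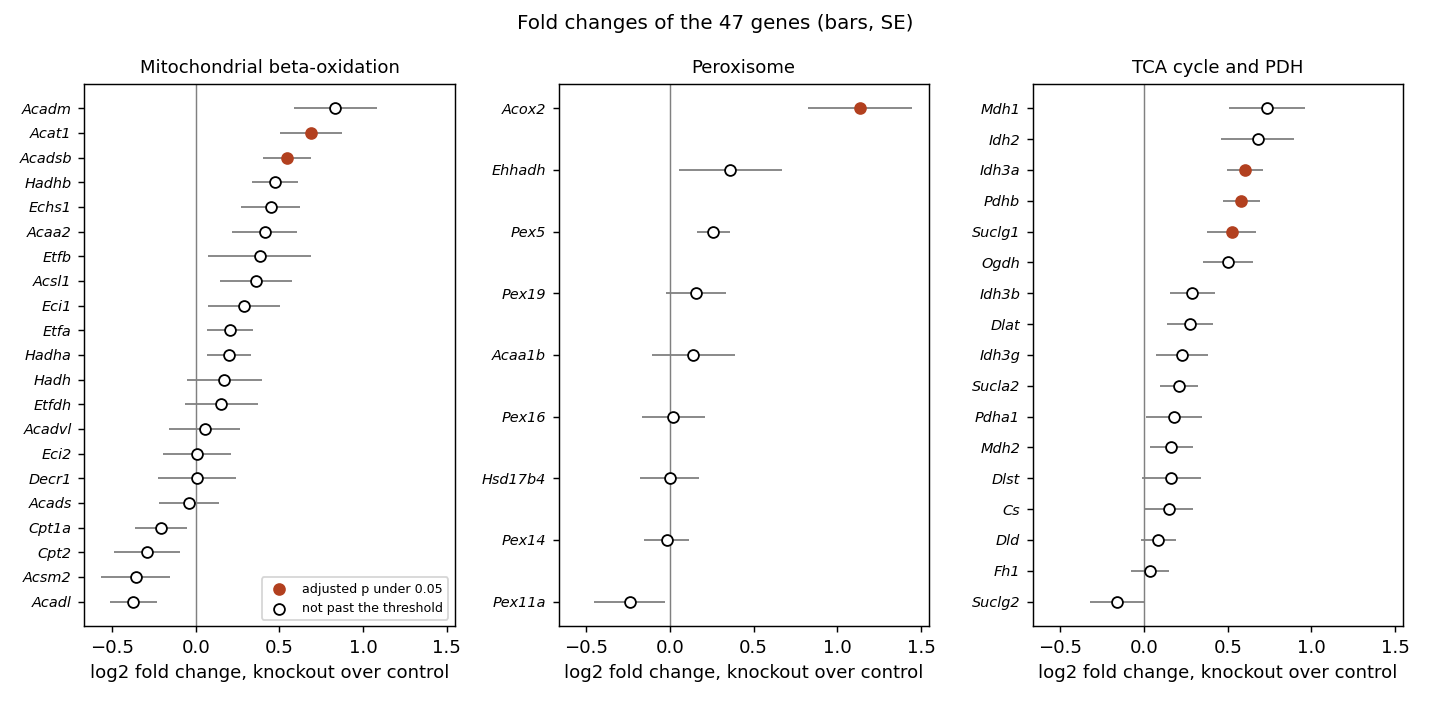
Log2 fold change of each of the 47 genes, knockout over control (x axis), by class, with bars for the SE over 4 libraries per group. Filled points passed the edgeR threshold: 2 of 21 for beta-oxidation, 1 of 9 for the peroxisome and 3 of 17 for the TCA group, all to the right of 0. Of all genes tested 6.45% rose and 6.28% fell.

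**Figure D2:**
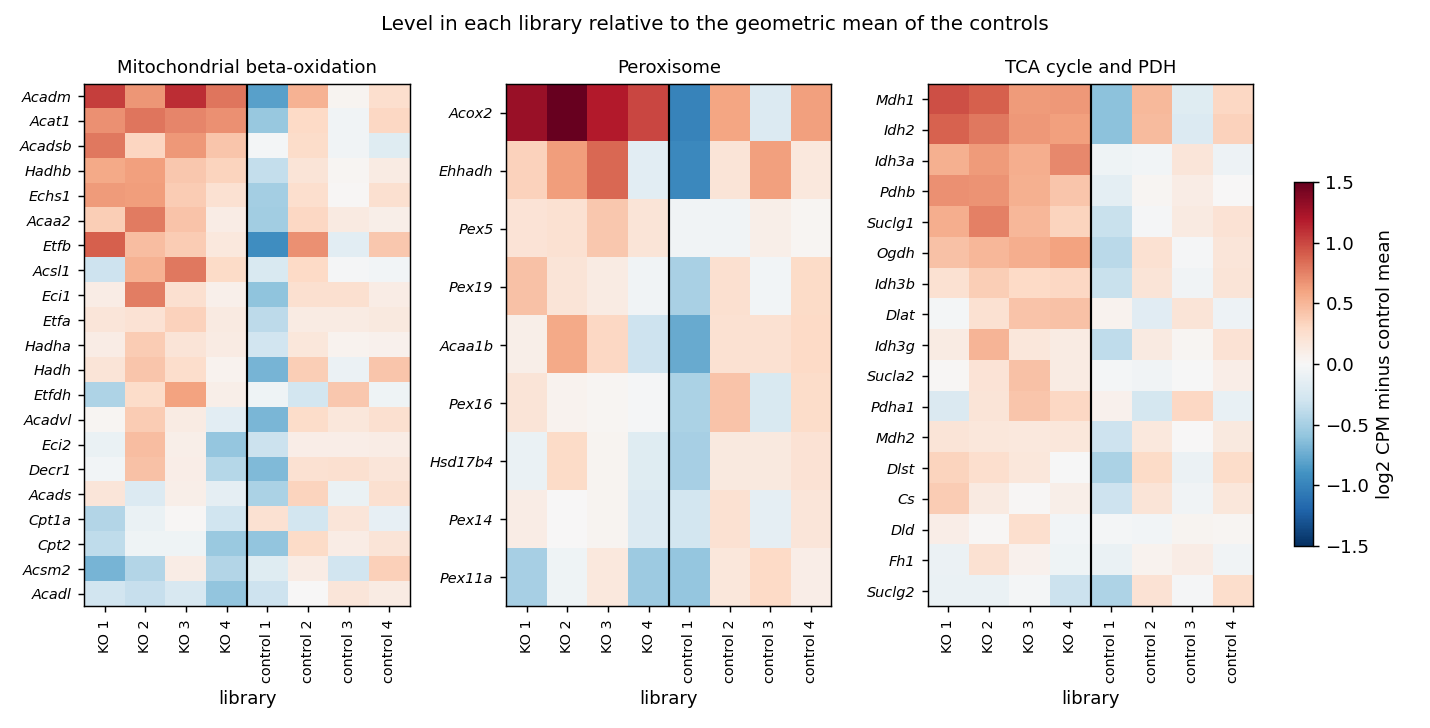
Level of each gene (rows) in each library (columns, knockout left of the line) as log2 CPM minus the mean of the 4 controls. The column of control 1 is blue for most genes in all 3 classes, and it was the lowest of the 8 libraries for 34 of the 47 genes.

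Mitochondrial beta-oxidation. Of 21 genes 2 rose (9.52%), 0 fell and 19 did not pass, where 6.45% of all genes tested rose and 6.28% fell. The median log2 fold change was 0.20. The median was 0.11 without control 1 and 0.046 without control 1 and knockout 3. The share of the 21 genes above 0 was 57.1% without control 1, against 76.2% with it (50.2% and 48.8% of all genes tested). The first steps, which activate fatty acids and carry them into the mitochondrion, did not pass the threshold. Cpt1a, the outer-membrane carnitine palmitoyltransferase that sets the rate of entry, stood at 244, 308, 336 and 269.9 CPM in knockout libraries 1 to 4, against 386, 274, 374 and 303 CPM in control libraries 1 to 4. Both groups covered much the same range (log2 fold change -0.21 with an SE of 0.15, adjusted p = 0.403 in edgeR). Cpt2, its partner on the inner membrane, averaged 196 ± 32.2 CPM in the knockout and 240.1 ± 57.9 CPM in the control (SD, n = 4 each; log2 fold change -0.29). Acsl1, a synthetase that joins long-chain fatty acids to CoA, had a log2 fold change of 0.36, and Acsm2, a medium-chain synthetase and with 1149 CPM in the knockout and 1472 CPM in the control the most counted of the class, had -0.36.

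The acyl-CoA dehydrogenases, which open the cycle and are specialized by chain length, did not move together. Acadm, the medium-chain enzyme, had 876, 672.5, 916 and 745 CPM in knockout libraries 1 to 4, against 243, 611, 440.2 and 506 CPM in control libraries 1 to 4. All knockout libraries lay above all controls, the nearest being knockout 2 and control 2, yet the gene did not pass (log2 fold change 0.83 with an SE of 0.25, adjusted p = 0.053 in edgeR); it passed without control 1 (log2 fold change 0.63, adjusted p = 0.0357), without control 2 and in DESeq2 (adjusted p = 0.00878). Acadl, the long-chain enzyme, pointed the other way with 291, 280.1, 301 and 236 CPM in knockout libraries 1 to 4, against 286.5, 356.5, 404 and 387 CPM in control libraries 1 to 4. Control 1 lay among the knockouts and the other controls above them all, and Acadl had the lowest log2 fold change of the 47, at -0.37 (SE 0.14, edgeR adjusted p = 0.107); without control 1 it fell (-0.47, adjusted p = 0.0386). Acadvl, the very-long-chain enzyme, and Acads, the short-chain enzyme, had log2 fold changes of 0.05 and -0.04.

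Acadsb, which dehydrogenates short branched acyl-CoAs and also serves isoleucine breakdown, was the called member of the family. It stood at 71.5, 51.3, 64.9 and 54.9 CPM in knockout libraries 1 to 4, against 40.3, 49.9, 39.6 and 36.2 CPM in control libraries 1 to 4. The lowest knockout lay just above the highest control (log2 fold change 0.55 with an SE of 0.14, adjusted p = 0.0336 in edgeR), and with 18.1 CPM per kb in the knockout and 12.4 in the control it had the lowest level per gene length of the class. Electrons from these enzymes pass to the electron transfer flavoprotein, made of the products of Etfa and Etfb, and on to its oxidoreductase, the product of Etfdh. None of Etfa, Etfb and Etfdh passed (log2 fold changes 0.20, 0.38 and 0.15); that of Etfb was 0.15 without control 1. Etfb had the highest level per gene length of the class (CPM per kb of 679.6 in the knockout and 522 in the control), and in control 1 it stood at 228 CPM (controls 2 to 4, 388 to 698 CPM).

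Of the genes of the later steps only Acat1 passed. Hadhb, the thiolase subunit of the mitochondrial trifunctional protein, was higher in all knockouts (248, 257, 222 and 212 CPM) than in all controls (131, 192, 171 and 183 CPM) and narrowly missed the threshold (log2 fold change 0.47 with an SE of 0.14, adjusted p = 0.0513 in edgeR). Hadhb passed without control 2 and in DESeq2 (adjusted p = 0.0175), but not without control 1 (log2 fold change 0.37). Its partner subunit Hadha averaged 344 ± 30.9 CPM in the knockout and 299.7 ± 39.5 CPM in the control (log2 fold change 0.20). Echs1, the short-chain hydratase, Hadh, the short-chain hydroxyacyl-CoA dehydrogenase, and Acaa2, the medium-chain thiolase, had log2 fold changes of 0.45, 0.17 and 0.41. Acat1, the thiolase that splits acetoacetyl-CoA and serves ketone body and isoleucine metabolism, stood at 587, 635, 609 and 589 CPM in knockout libraries 1 to 4, against 246.5, 449.6, 353 and 454.5 CPM in control libraries 1 to 4. The knockouts lay close together and above every control, and Acat1 rose 1.61-fold (log2 fold change 0.69 with an SE of 0.19, adjusted p = 0.0373 in edgeR). Eci1, Eci2 and Decr1, auxiliary enzymes that handle double bonds of unsaturated fatty acids, had log2 fold changes of 0.29, 0.01 and 0.01; Eci2 is found in peroxisomes as well.

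**Figure D3:**
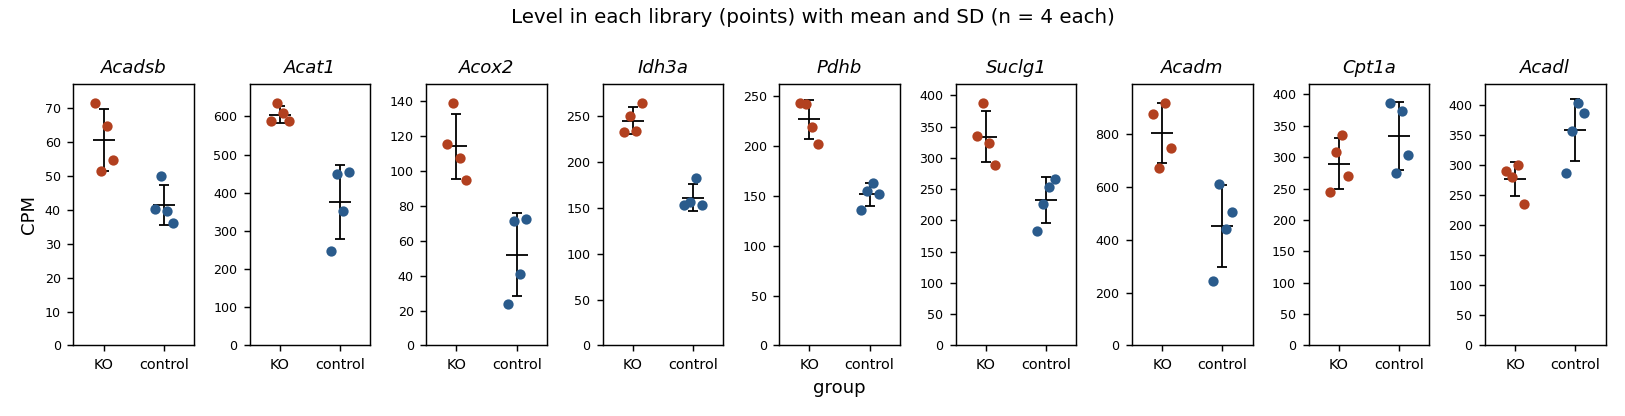
CPM of 9 genes (y axes start at 0) in each knockout library (KO, left) and control library (right), with mean and SD, n = 4 each. The 6 called genes, Acadsb to Suclg1, and Acadm have no overlap between the groups; Cpt1a and Acadl overlap.

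Peroxisome. Of 9 genes 1 rose (11.1%), 0 fell and 8 did not pass, where 6.45% of all genes tested rose and 6.28% fell. The median log2 fold change was 0.14, and -0.05 without control 1. Acox2, the oxidase that acts on branched chains and bile acid intermediates, stood at 115, 139, 107 and 94.7 CPM in knockout libraries 1 to 4, against 23.5, 71.05, 40.8 and 72.2 CPM in control libraries 1 to 4. Every knockout lay above every control and control 1 was the lowest, and Acox2 rose (log2 fold change 1.14 with an SE of 0.31, adjusted p = 0.0392 in edgeR), the highest fold change of the 47. Without control 1 its log2 fold change was 0.89 (adjusted p = 0.0251). Ehhadh, the bifunctional enzyme of the classical peroxisomal cycle, had 628, 766, 899 and 446 CPM in knockout libraries 1 to 4, against 255, 569, 757 and 551.5 CPM in control libraries 1 to 4. Both groups spread widely and overlapped, with control 1 lowest of all (log2 fold change 0.36 with an SE of 0.31, adjusted p = 0.479 in edgeR). The log2 fold change of Ehhadh was 0.13 without control 1 and -0.03 without control 1 and knockout 3. Hsd17b4, the bifunctional enzyme for branched and very long chains, averaged 322.5 ± 47.4 CPM in the knockout and 323 ± 66.1 CPM in the control (log2 fold change -0.00, adjusted p = 0.996). Acaa1b, a peroxisomal thiolase, had a log2 fold change of 0.14; its close paralog Acaa1a had 0.11, and reads may be shared between the pair.

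The peroxins, which build peroxisomes, did not pass the threshold. Pex5, the receptor that brings enzymes into the organelle, was higher in all knockouts (92.0 to 106 CPM) than in all controls (77.1 to 85.6 CPM), a small shift that did not pass (log2 fold change 0.26 with an SE of 0.10, adjusted p = 0.112 in edgeR). Pex14, its docking partner at the membrane, Pex16 and Pex19, which insert membrane proteins, had log2 fold changes of -0.02, 0.02 and 0.16. Pex11a, a membrane protein linked to peroxisome division, had -0.24 (SE 0.21). Per gene length the highest levels of the class were those of Acaa1b, Ehhadh and Hsd17b4, with CPM per kb of 243 in the knockout and 220.2 in the control for Acaa1b, 227.5 in the knockout and 177 in the control for Ehhadh and 120.1 in the knockout and 120.3 in the control for Hsd17b4. Acox2 (43.4 in the knockout and 19.75 in the control) and the peroxins, from 29.1 in the knockout and 24.3 in the control (Pex5) to 49.5 in the knockout and 44.4 in the control (Pex19), stood lower.

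TCA cycle and pyruvate dehydrogenase. Of 17 genes 3 rose (17.6%), 0 fell and 14 did not pass, where 6.45% of all genes tested rose and 6.28% fell. The median log2 fold change was 0.22, with 0.19 without control 1 and 0.13 without control 1 and knockout 3. A log2 fold change above 0 was found for 16 of the 17 (94.1%), also without control 1. Of all genes tested, 48.8% were above 0, and 50.2% without control 1. Pdhb, the beta subunit of the E1 enzyme of pyruvate dehydrogenase, which turns pyruvate into acetyl-CoA, stood at 243, 242, 219.5 and 202 CPM in knockout libraries 1 to 4, against 136, 154, 163 and 152 CPM in control libraries 1 to 4. The groups were well apart and Pdhb rose (log2 fold change 0.58 with an SE of 0.11, adjusted p = 0.00977 in edgeR). Pdha1, the alpha subunit of the same enzyme, Dlat, the E2 subunit, and Dld, the E3 subunit shared with other complexes, missed the threshold (log2 fold changes 0.18, 0.27 and 0.08). Cs, citrate synthase, which joins acetyl-CoA to the cycle, had 502, 424, 390.5 and 409 CPM in knockout libraries 1 to 4, against 311, 441, 372 and 435 CPM in control libraries 1 to 4. The groups overlapped (log2 fold change 0.15 with an SE of 0.15, adjusted p = 0.547 in edgeR).

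Idh3a, the catalytic subunit of the NAD-dependent isocitrate dehydrogenase, showed the smallest p of the 47. It stood at 232.5, 249.9, 234 and 264 CPM in knockout libraries 1 to 4, against 153, 156, 183 and 153 CPM in control libraries 1 to 4. The gap between the lowest knockout and the highest control was larger than the spread within the knockouts, and Idh3a rose 1.52-fold (log2 fold change 0.60 with an SE of 0.11, adjusted p = 0.00764 in edgeR). Its partner subunits Idh3b and Idh3g missed the threshold, at log2 fold changes of 0.29 and 0.22. Idh2, the NADP-dependent mitochondrial enzyme, had 421, 393, 358 and 348 CPM in knockout libraries 1 to 4, against 148, 315, 197 and 289 CPM in control libraries 1 to 4. The groups did not overlap, but the controls ran over a wide range and Idh2 did not pass (log2 fold change 0.68 with an SE of 0.22, adjusted p = 0.068 in edgeR). Idh2 passed without control 2 and in DESeq2 (adjusted p = 0.0234), but not without control 1 (log2 fold change 0.51).

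Ogdh, the E1 subunit of the 2-oxoglutarate dehydrogenase complex, stood at 608, 631, 653 and 678 CPM in knockout libraries 1 to 4, against 339.7, 525, 443 and 509 CPM in control libraries 1 to 4. All knockouts lay above all controls and the gene missed the threshold narrowly (log2 fold change 0.50 with an SE of 0.15, adjusted p = 0.0538 in edgeR). Ogdh passed without control 2 and in DESeq2 (adjusted p = 0.013), but not without control 1 (log2 fold change 0.38). Dlst, the E2 subunit, averaged 479 ± 47.15 CPM in the knockout and 428 ± 100.4 CPM in the control (log2 fold change 0.16). Suclg1, the alpha subunit common to both forms of succinyl-CoA ligase, had 334, 388, 324 and 289 CPM in knockout libraries 1 to 4, against 183, 227, 253 and 266 CPM in control libraries 1 to 4. Knockout 4 lay just above control 4 and the others farther apart, and Suclg1 rose 1.44-fold (log2 fold change 0.52 with an SE of 0.15, adjusted p = 0.0438 in edgeR). Its beta partners Sucla2, of the ATP-forming enzyme, and Suclg2, of the GTP-forming enzyme, had 0.21 and -0.16.

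Fh1, fumarase, had a log2 fold change of 0.04. Mdh1, the cytosolic malate dehydrogenase of the malate-aspartate shuttle, had the largest log2 fold change of the class that did not pass, with 1240, 1185, 989 and 999.9 CPM in knockout libraries 1 to 4, against 414, 890.3, 558.5 and 789 CPM in control libraries 1 to 4. The groups did not overlap and control 1 was the lowest (log2 fold change 0.73 with an SE of 0.23, adjusted p = 0.0586 in edgeR). Mdh1 passed without control 2 and in DESeq2 (adjusted p = 0.0135), but not without control 1 (log2 fold change 0.56). Mdh2, the mitochondrial enzyme, was nearly constant among knockouts at 544 to 557 CPM, against 391.5 to 543 CPM in controls (log2 fold change 0.16). Per gene length Mdh1 and Mdh2 were the highest of the class, with CPM per kb of 563 in the knockout and 338.5 in the control for Mdh1 and of 428.5 in the knockout and 383 in the control for Mdh2, and Dlat was the lowest (40.2 in the knockout and 33.2 in the control).

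Of the 6 called genes, Pdhb and Idh3a kept their calls in every fit that left out 1 library. Acadsb lost its call without knockout 1, 3 or 4 or control 1, 3 or 4 (adjusted p up to 0.0885). Acat1 and Acox2 lost theirs without any 1 knockout or control 3 (up to 0.1 and 0.105), and Suclg1 without any 1 knockout or control 1, 2 or 3 (up to 0.12). Calls over all genes tested also changed, from 1909 to 1748, 1050, 1139 and 907 without knockouts 1 to 4 in turn. They numbered 1579, 1984, 1058 and 1497 without controls 1 to 4 in turn. Among the 47, the count of called genes was 2 without knockout 1, 3 or 4 or control 3, and 3 without knockout 2. It was 5 higher and 1 lower without control 1 (5.4% and 5% of all genes tested), 10 without control 2 and 5 without control 4. Without control 1 and knockout 3 together it was 3 (Acox2, Pdhb and Idh3a), where 3.65% of all genes tested rose and 3.3% fell.

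Promoter sequences of 3 genes are shown: Acadm and Ogdh as the members that held the estrogen-related receptor half-site, and Pdhb as a called member without a match. RefSeq windows of 250 bases before and 50 after the annotated start (build GRCm38.p6; the submitters name mm39) were at hand for 41 of the 47 genes. Both strands were searched for 5 motifs of factors tied to mitochondrial and fat metabolism: the estrogen-related receptor half-site AAGGTCA, the PPAR direct repeat (AGGTCA, any base, AGGTCA), the NRF1 site (GCGCA, any base, GCGC), the GABP site CCGGAAGT and the FoxO site GTAAACA. Capitals mark a match, here the half-site read on the opposite strand. Its first base lies at -249 in Acadm and at -5 in Ogdh, counted from the annotated start as 0. Pdhb held none of the 5.
Acadm, chr3:153944594-153944893, minus strand: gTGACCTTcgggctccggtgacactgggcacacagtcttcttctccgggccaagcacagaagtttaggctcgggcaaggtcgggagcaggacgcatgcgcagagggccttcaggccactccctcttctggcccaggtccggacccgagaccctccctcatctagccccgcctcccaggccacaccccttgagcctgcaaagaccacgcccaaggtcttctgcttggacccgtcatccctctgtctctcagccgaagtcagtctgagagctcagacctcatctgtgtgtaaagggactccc
Ogdh, chr11:6291920-6292219, plus strand: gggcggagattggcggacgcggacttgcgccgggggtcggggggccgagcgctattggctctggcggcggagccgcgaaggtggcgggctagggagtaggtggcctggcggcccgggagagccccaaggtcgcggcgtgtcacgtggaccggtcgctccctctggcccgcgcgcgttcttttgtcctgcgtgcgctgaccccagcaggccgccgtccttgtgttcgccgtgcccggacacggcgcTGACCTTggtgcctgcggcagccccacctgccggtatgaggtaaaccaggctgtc
Pdhb, chr14:8172943-8173242, minus strand: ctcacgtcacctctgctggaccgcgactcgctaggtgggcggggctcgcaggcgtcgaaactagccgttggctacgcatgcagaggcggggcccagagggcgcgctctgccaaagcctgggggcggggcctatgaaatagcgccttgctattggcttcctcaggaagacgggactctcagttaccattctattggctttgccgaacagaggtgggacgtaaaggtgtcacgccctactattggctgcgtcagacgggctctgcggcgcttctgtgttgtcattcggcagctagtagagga

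The half-site was in a window of 2 of the 41 genes (4.88%), against 5.38% of 27025 genes with a window. The NRF1 letters were in 4 (9.76%, against 5.19%): Dld, Etfb, Etfdh and Sucla2. The GABP letters were in 3 (7.32%, against 4.31%): Cpt2, Dlst and Pex11a. The PPAR repeat, in 0.0481% of genes, and the FoxO letters, in 4.05%, were in 0 of the 41. None of the 4 called genes with a window, Acadsb, Acox2, Pdhb and Suclg1, held any of the 5.

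Pairs of genes were then set against each other within each library, which removes the scaling between libraries. The ratio was taken as log2 of CPM per kb for 8 pairs and tested with a two-sided exact permutation test, for which the 70 ways to split the libraries 4 and 4 allow no p below 0.0286. The trifunctional protein pair Hadha/Hadhb gave -0.02, 0.21, 0.23 and 0.22 in knockouts 1 to 4, against 0.50, 0.41, 0.47 and 0.38 in controls 1 to 4. The groups did not overlap, with a difference of -0.28, knockout minus control (exact p = 0.0286, adjusted over the 8 pairs 0.114). The malate dehydrogenase pair Mdh1/Mdh2, cytosolic over mitochondrial, gave 0.54, 0.50, 0.25 and 0.25 in knockouts 1 to 4, against -0.53, 0.10, -0.41 and -0.06 in controls 1 to 4. Mdh1 exceeded Mdh2 per gene length in all 4 knockouts and in control 2, with a difference of 0.61 (exact p = 0.0286, adjusted 0.114). Neither pair passed after adjustment. The pairs Etfa/Etfb, Cpt1a/Cpt2, Idh3a/Idh3b, Pdha1/Pdhb, Sucla2/Suclg2 and Idh2/Idh3a overlapped between the groups, with differences from -0.41 (Pdha1/Pdhb) to 0.34 (Sucla2/Suclg2) and exact p from 0.114 to 0.914.

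**Figure D4:**
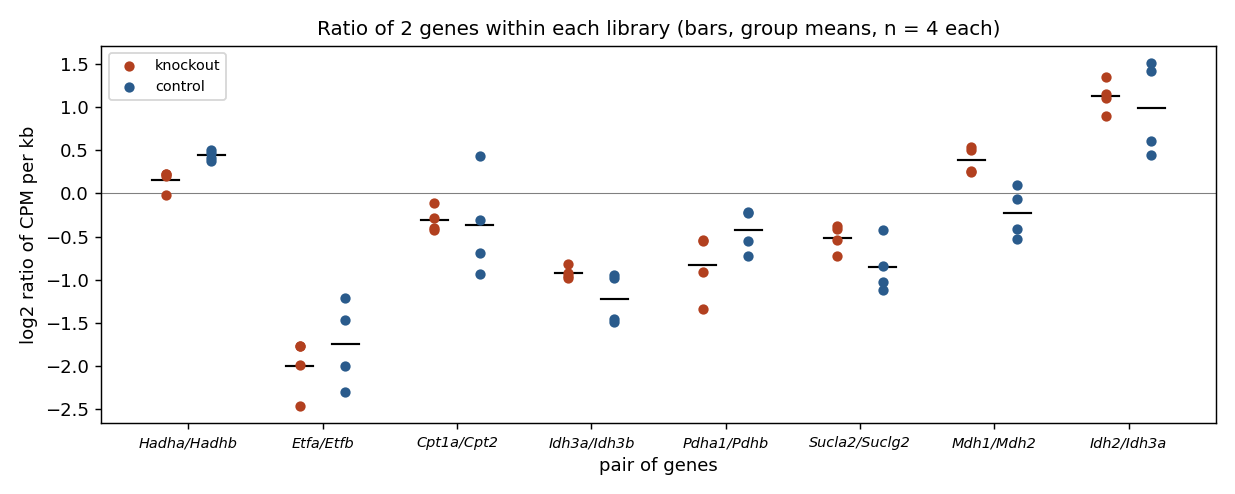
Log2 ratio of CPM per kb within each library for 8 pairs (x axis), knockout left of control, with bars for the group means, n = 4 each. Hadha/Hadhb lies lower and Mdh1/Mdh2 higher in all 4 knockouts than in all 4 controls; the other 6 pairs overlap.

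Genes around these pathways were read from the same fit, in 7 further lists chosen with earlier results of these data known. Some genes are in more than 1 list. Beside the counts of these lists and of the marker lists below, 6.45% of all genes tested rose and 6.28% fell. Among other genes of mitochondrial fatty acid oxidation, 3 of 25 tested rose and 2 fell, with a median log2 fold change of 0.40. Acss1 and Acss3, which activate acetate and other short chains, rose 1.82-fold and 2.82-fold (edgeR adjusted p = 0.00972 and 0.00236), and Acsm5, a medium-chain synthetase, rose 2.51-fold (adjusted p = 0.0108). Acot2 and Acot9, mitochondrial thioesterases that release fatty acids from CoA, fell (log2 fold changes -0.70 and -0.67). Both lost their calls without knockout 2, knockout 4 or control 3 (adjusted p up to 0.0587 for Acot2 and 0.0775 for Acot9, which was named after its value was seen). Acot2, and Acot3 described below, have close relatives among the Acot genes and may share reads with them.

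Of 30 other peroxisomal enzymes tested 2 rose and 1 fell, with a median of 0.11, and of 24 other peroxins and membrane proteins 0 changed (median 0.15). Hao2, a peroxisomal 2-hydroxyacid oxidase, stood at 332, 397, 320 and 293.5 CPM in knockout libraries 1 to 4, against 18.1, 53.5, 44.03 and 57.7 CPM in control libraries 1 to 4. All knockouts lay far above all controls, and Hao2 rose 7.75-fold (log2 fold change 2.95 with an SE of 0.32, adjusted p = 0.000908 in edgeR). Acot3, a peroxisomal thioesterase, rose 2.75-fold and lost its call without knockout 2, knockout 3 or control 3 (adjusted p up to 0.0669). Uox, urate oxidase, fell, at 0 to 5 counts per knockout library against 13 to 50 per control library (adjusted p = 0.0177, and 0.055 without control 3). Cat, catalase, had a log2 fold change of 0.05.

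Of 28 other genes of the TCA cycle and of pyruvate use, 4 rose and 1 fell, with a median of 0.20. Of the kinases that switch off pyruvate dehydrogenase, Pdk4 fell and Pdk1 rose. Pdk4 had 16.45, 24.8, 25.5 and 15.4 CPM in knockout libraries 1 to 4, against 96.8, 66.7, 145.5 and 47.2 CPM in control libraries 1 to 4. The highest knockout lay below the lowest control, and Pdk4 fell, with a level 4.33-fold lower in the knockout (log2 fold change -2.11 with an SE of 0.33, adjusted p = 0.00417 in edgeR). Pdk1 rose 1.58-fold (adjusted p = 0.0304), a call lost without any 1 knockout or control 2 (adjusted p up to 0.0814). Me3, a mitochondrial malic enzyme, rose 1.78-fold (log2 fold change 0.83 with an SE of 0.13, adjusted p = 0.00362 in edgeR). Me2, another mitochondrial malic enzyme, missed the threshold (log2 fold change 0.13, adjusted p = 0.629 in edgeR). Sdhb, of succinate dehydrogenase, rose 1.52-fold, a call lost without any 1 knockout, control 1 or control 3 (adjusted p up to 0.0999). Pcx, pyruvate carboxylase, named after its value was seen, rose by 0.80 on the log2 scale and was no longer called without knockout 2, 3 or 4 or control 1, 2 or 3 (adjusted p up to 0.101).

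Of 19 genes of fatty acid uptake, activation and ketone metabolism, 3 rose and 2 fell, with a median of 0.35. Cd36, a fatty acid uptake receptor, stood at 136, 159.6, 192.5 and 100.4 CPM in knockout libraries 1 to 4, against 238, 279.5, 403 and 294 CPM in control libraries 1 to 4. Knockouts lay below all controls and Cd36 fell, 2.065-fold lower in the knockout (log2 fold change -1.05 with an SE of 0.22, adjusted p = 0.0139 in edgeR), as did Acsl4, a synthetase that prefers polyunsaturated chains (log2 fold change -1.04). Acsl4, named after its value was seen, lost its call without any 1 knockout, control 1 or control 3 (adjusted p up to 0.0957). Acacb, the acetyl-CoA carboxylase whose product malonyl-CoA inhibits CPT1 at the mitochondrion, had 53.5, 61.99, 60.5 and 76.3 CPM in knockout libraries 1 to 4, against 8.46, 22.6, 21.1 and 14.35 CPM in control libraries 1 to 4. It rose 3.79-fold (log2 fold change 1.92 with an SE of 0.27, adjusted p = 0.00286 in edgeR). Oxct1 and Bdh1, enzymes of ketone body use, rose 1.715-fold and 2.29-fold; Oxct1 lost its call without control 3 (adjusted p = 0.0505) and Bdh1 without knockout 4 (0.0517).

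Regulators of these genes were compared next. PPAR-alpha is a lipid-activated receptor that turns on fatty acid oxidation genes, and PGC-1alpha, the product of Ppargc1a, is a coactivator of it and of the estrogen-related receptors. Of 16 receptors, coactivators and other regulators 2 rose and 0 fell, with a median of 0.12. Ppara stood at 49.2, 77.05, 76.2 and 57.7 CPM in knockout libraries 1 to 4, against 49.97, 56.3, 69.1 and 68.9 CPM in control libraries 1 to 4. The groups overlapped throughout (log2 fold change 0.09 with an SE of 0.17, adjusted p = 0.766 in edgeR). Ppargc1a had 33.04, 41.6, 42.8 and 48.3 CPM in knockout libraries 1 to 4, against 19.9, 23.3, 24.9 and 19.2 CPM in control libraries 1 to 4. Every knockout lay above every control, and Ppargc1a rose 1.90-fold (log2 fold change 0.93 with an SE of 0.15, adjusted p = 0.00427 in edgeR). Esrrb, estrogen-related receptor beta, rose to 59.9, 51.5, 51.3 and 50.3 CPM in knockouts 1 to 4, against 12.4, 19.65, 14.4 and 15.03 CPM in controls 1 to 4 (log2 fold change 1.79 with an SE of 0.15, adjusted p = 0.000334 in edgeR), while Esrra and Esrrg, at 0.48 and 0.58 on the log2 scale, missed the threshold.

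Of 17 genes listed here as targets of PPAR-alpha, outside the 47 genes, 0 rose and 6 fell, with a median of -0.29. Whether each of them, such as Cyp4a12a and Cyp4a12b, answers to PPAR-alpha in the kidney was not tested. Plin2, a lipid droplet coat protein, and Angptl4, a secreted inhibitor of lipoprotein lipase, fell (log2 fold changes -3.17 and -1.29, edgeR adjusted p = 0.000586 and 0.0121), as did Pdk4 above. Plin2 stood at 131, 201, 157 and 179 CPM in knockout libraries 1 to 4, against 2118, 1262, 1862 and 764 CPM in control libraries 1 to 4. The highest knockout lay far below the lowest control. Fgf21, a secreted hormone, fell, at 0 to 2 counts per knockout library against 11 to 28 per control library (adjusted p = 0.00869). Cyp4a12a and Cyp4a12b, fatty acid hydroxylases that are near-identical and may share reads, fell as well (log2 fold changes -1.48 and -2.38), while the hydroxylases Cyp4a10 and Cyp4a14 missed the threshold at log2 fold changes of 0.52 and 1.15. Angptl4 and Cyp4a12a were named after their values were seen. Without control 1 the counts of genes that rose and fell were 3 and 1 for the other peroxisomal enzymes (Agps rose as well), 2 and 1 for the other TCA and pyruvate genes and 3 and 1 for uptake and ketone metabolism, and in the other 4 lists they were as above.

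**Figure D5:**
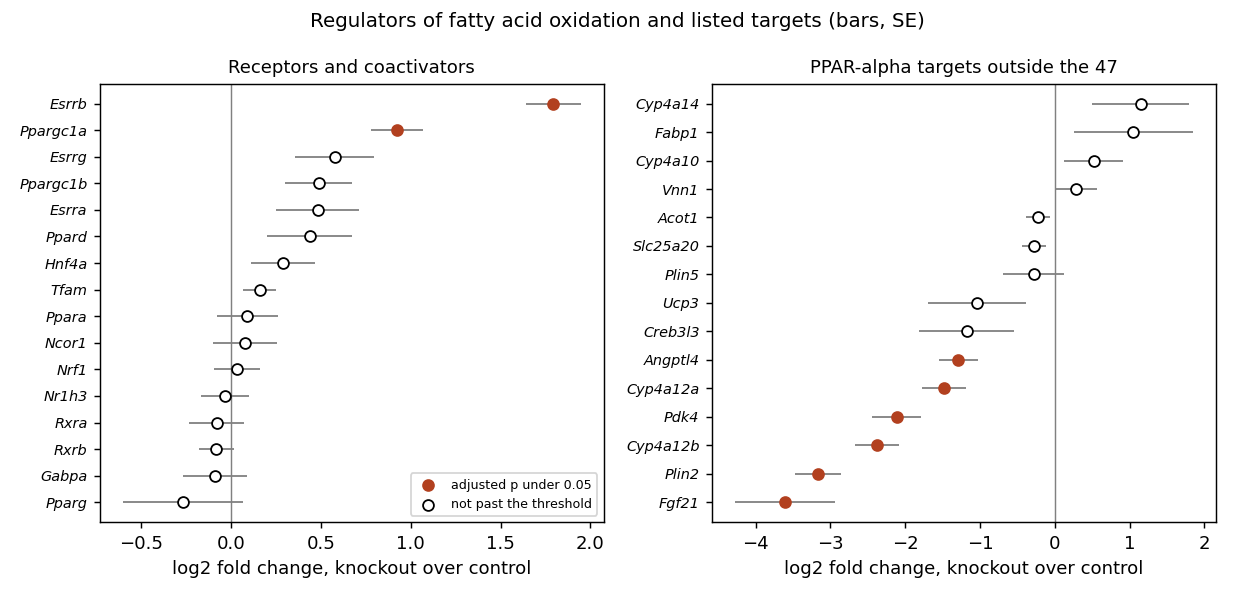
Log2 fold change, knockout over control (x axis), with SE. Left, 16 receptors, coactivators and other regulators. Right, 15 of the 17 tested genes that were listed as targets of PPAR-alpha. Esrrb and Ppargc1a are the filled points on the left, above 0, and the 6 filled points on the right, Angptl4, Cyp4a12a, Pdk4, Cyp4a12b, Plin2 and Fgf21, lie below 0; the value of Fgf21 is fitted from libraries near 0 counts.

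Markers of the cells a kidney sample can hold moved between the same groups. Of 12 markers of the convoluted proximal tubule 1 rose (Lrp2, which encodes megalin, 1.99-fold, a call lost without knockout 2, 3 or 4 or control 3, adjusted p up to 0.0666) and 0 fell, with a summed level of 7007 to 10168 CPM in the knockout and 3680 to 9894 CPM in the control. Of 8 markers of its straight part 3 rose and 0 fell (16623 to 28288 CPM in the knockout, 7989 to 16913 CPM in the control), Slc7a13 3.10-fold and Slc5a8 2.30-fold among them. Of 9 markers of the thick ascending limb 7 rose (6957 to 8054 CPM in the knockout, 2374 to 4068 CPM in the control), Slc12a1 and Ptger3 among them, and of 9 of the distal tubule and collecting duct 8 rose (2257 to 3031 CPM in the knockout, 578 to 1506 CPM in the control), with Slc26a4 and Slc4a1 among them. Of 12 genes of injured tubules 10 fell, Krt8 and Havcr1 among them (6233 to 7095 CPM in the knockout, 15853 to 30529 CPM in the control). Control 1 had the lowest summed level of the 4 tubule lists other than the injury list. Without control 1 the straight part had 4 genes that rose, Slc22a13 among them, and the counts of the other 4 tubule lists were as above.

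Of 10 macrophage markers 2 fell, Cd14 and Itgam, with a median log2 fold change of 0.00 and a summed level of 234 to 392 CPM in the knockout and 314 to 423 CPM in the control. Of the 8 that did not pass, 5 had log2 fold changes above 0, from 0.19 (C1qb) to 0.60 (Csf1r), and Lyz2, Cd68 and Mrc1 had -0.18, -0.58 and -1.13. Without control 1, Csf1r rose. Of 7 neutrophil markers tested 6 fell, S100a8 and S100a9 among them (6.09 to 16.7 CPM in the knockout, 27.7 to 178 CPM in the control). Control 1 was the highest of all for the neutrophil list, and without it the log2 fold changes were -0.86 for Itgam (against -1.58), -2.31 for S100a8 (against -3.08) and -2.03 for S100a9 (against -2.76). Itgam lost its call without any 1 knockout (adjusted p up to 0.109), and S100a9 without knockout 2 or 4 (up to 0.058). Of 11 immediate early genes, which can respond to tissue digestion, 7 fell, Junb and Btg2 among them (278 to 332 CPM in the knockout, 478 to 735 CPM in the control). Adipocyte markers, of which 0 of 5 tested changed (Ucp1 fell without control 1), varied widely within both groups, from 2.68 to 111 CPM in the knockout and from 25.9 to 145 CPM in the control, and 3 of 6 skeletal muscle markers, Ckm, Myh4 and Myh1, were at 0 in every library. The part that cell makeup, injury or handling had in the values of these genes was not tested.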

How the data were processed

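The series holds 8 libraries of mouse kidney RNA, 4 from the myeloid-specific FoxO1 knockout and 4 from the control, all after I/R; per the labels' protocols, 1.3 µg of RNA from collagenase-digested kidney went into a kit (NEBNext Ultra RNA) that does not mark strand, so reads of overlapping antisense genes cannot be told apart. The authors deposited 1 table of raw counts per gene with gene lengths. Per the submitters' processing notes, the tools were HISAT2 2.2.1, Salmon 1.10.2, Trim Galore 0.6.2 and FastQC, and the build was mm39, with no role or order stated. The sources used here do not give the step that made the counts, nor the annotation. Among deposited counts of 1 to 20, 68.7 to 70.9% per library were even numbers, against 49.5 to 50.4% of counts over 100, an excess whose source was not tested; halving the counts was an alternative.

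Genes were filtered by filterByExpr (minimum count 10), scaled by TMM and tested with edgeR 4.0.16 (R 4.3.3) by its quasi-likelihood test, knockout over control, with Benjamini-Hochberg adjustment over the 15000 genes tested and calls at an adjusted p under 0.05. SEs are the absolute log2 fold change divided by the square root of F. CPM are counts scaled by TMM library size and log2 CPM used a prior count of 2. Values given as mean ± SD are over 4 libraries. Nothing in the labels says whether the libraries came from separate animals, so the p-values rest on the spread between libraries, which may be technical. The scripts were checked on simulated data. DESeq2 1.42.0, voom with quality weights (limma 3.58.1), other scalings and filters, removal of length and GC trends and libraries left out were the alternatives.

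The 47 genes, the other lists and the tests were chosen with earlier results of these data known. Values in every library are given for called members, for Cpt1a, Acadm, Ehhadh, Acox2, Cs and Ogdh, and for the uncalled member of each class with the largest absolute log2 fold change; Acadl, Idh2 and Hadhb were added after their values were seen. Of each other list the called genes of smallest p are named, at most 4 per pathway list and 2 per marker list, with Ppara and Ppargc1a. Further genes of the lists are named as examples. A few genes of the lists are counted but not reported here by name. Each list's calls are counts from the fit over all genes, with no test of the list.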

Additional observations from a re-analysis of the deposited data

Results flagged for a closer look

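Of 166 groups of 4 libraries tested for a library far from the other 3 (Dixon's criterion), 14 were found, 9 of them among the 94 groups of the 47 genes; chance gives about 1 in 20. For 6 of the 9, the library was control 1, and it was the lowest. It stood at 305.9 CPM for Acadvl (the other controls at 549.6 to 595.8), 159.8 CPM for Etfa (227.3 to 231), 125.9 CPM for Eci2 (168.4 to 169.3), 184.1 CPM for Decr1 (330 to 344.8), 224.5 CPM for Hsd17b4 (349.8 to 367.1) and 209.5 CPM for Acaa1b (413.7 to 432.9). None of these 6 genes was called, and without control 1 their log2 fold changes were -0.13, 0.09, -0.09, -0.17, -0.14 and -0.05.

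The other 3 were Pex5 in knockout 3, at 106.3 CPM (the other knockouts at 92.0 to 94.1), Idh3g in knockout 2, at 355.7 CPM (271.9 to 280.8), and Idh3a in control 3, at 182.7 CPM (152.9 to 156.1). Idh3a was called with and without control 3.

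Outside the 47 genes, Esrrb was high in knockout 1 at 59.92 CPM (50.3 to 51.5 in the others), Slc26a4 was low in knockout 4 at 79.84 CPM (89.5 to 91.3), and Acot2 was low in control 4 at 50.21 CPM (70.4 to 70.6). Control 1 was high for Itgam, at 41.42 CPM (9.72 to 12.8 in the other controls), and for S100a8, at 34.12 CPM (7.19 to 11.5).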

How the results depend on the processing

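Over all genes tested, 1909 calls became 865 with the replicate block, 3013 in DESeq2, 2857 with voom, 1045 without control 1 and knockout 3 together, and 907 to 1984 without 1 library each. Of them 50.7% were higher in the knockout, but 39.3% of the calls with length and GC trends removed. The 6 called members became 1 with the block (Idh3a), 11 with length and GC trends removed, 11 in DESeq2, 11 with voom (10 higher and 1 lower), 3 without control 1 and knockout 3 together, and 2 to 10 without 1 library. For beta-oxidation, 2 became 0 with the block, 5 with length and GC trends removed, 4 in DESeq2, 5 with voom, 0 without control 1 and knockout 3, and 0 to 4 without 1 library. For the peroxisome, 1 became 0 with the block and 0 to 1 without 1 library. For the TCA group, 3 became 1 with the block, 5 with length and GC trends removed, 6 in DESeq2, 5 with voom, and 2 to 5 without 1 library. The peroxisome median, 0.14, turned to -0.039 with voom and -0.0915 without control 1 and knockout 3, and ran from -0.054 (without control 1) to 0.2315 (without knockout 4) without 1 library. The cause was not tested. The other lists' 69 calls ran from 53 to 76 without 1 library. The number of ratios past the adjusted threshold was 0 in every fit, which says nothing about stability, since fewer than 5 separated pairs could not pass after adjustment. Of 846 values of members over the 18 alternatives, 786 kept their side of the threshold, 32 lost a call and 28 gained one. The sign changed in 52 of the 846, over 13 genes, none of them called.

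No pairing by the replicate number of the titles was seen: deviations of same-numbered libraries correlated at -0.198, 0.0358, 0.153 and -0.161 for numbers 1 to 4. Those of differently numbered libraries ran from -0.33 to 0.347. The column names of the counts number the knockouts otherwise. By those names knockout 1 shares its number with control 2 (0.347), and knockout 2 with control 3 (0.167). A block by the column numbers was not tested. A shared batch or day was not tested, so the block results rest on a number alone. Each member had at least 837 counts in every library and each group had 4 libraries.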

Other observations

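Genes of the propionate pathway, which carries the end product of odd-chain and branched-chain fatty acids into the TCA cycle, were read from the list of other mitochondrial oxidation genes after their values were seen. Pcca and Pccb, the subunits of propionyl-CoA carboxylase, had log2 fold changes of 0.40 (SE 0.13, edgeR adjusted p = 0.0656) and 0.30 (SE 0.15, adjusted p = 0.232). Mcee, the epimerase of the next step, and Mmut, the mutase that yields succinyl-CoA, had 0.49 and 0.44 (adjusted p = 0.195 and 0.105), so none of the 4 passed. Of the carriers that bring pyruvate into the mitochondrion, Mpc1 had a log2 fold change of 0.12 and Mpc2 one of 0.67 (adjusted p = 0.667 and 0.0564).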
